A study of Mus musculus with 24 samples.

Results

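Whether mouse lung responds differently to a high dose of diesel exhaust when ovalbumin (OVA) is given at the same time was examined as an interaction between the exposures. For each gene, the log2 difference between exhaust at 2000 ug/m3 and filtered air was taken in mice given OVA and again in mice given saline, and the second difference was subtracted from the first. A positive interaction therefore means a higher response to exhaust in the OVA arm, and a negative one a higher response in the saline arm. The comparison used 16 of the 24 arrays of the study, 4 in each of 4 groups. These were exhaust at 2000 ug/m3 with OVA, filtered air with OVA, exhaust at 2000 ug/m3 with saline, and filtered air with saline. Exposures ran for 4 hours a day over 5 days, OVA (100 ug) or saline was given for 3 days, and RNA came from frozen lung tissue. The labels used here do not give the strain, sex or age of the mice, the route of OVA, or whether the 4 replicates of a group came from separate animals, so p-values measure only the spread between these samples. The remaining 8 arrays, from exhaust at 500 ug/m3, entered the estimate of that spread.

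Diesel exhaust is a mixture of gases and soot particles that carry polycyclic aromatic hydrocarbons. In lung it is known to draw neutrophils from the blood, to induce acute phase and antimicrobial proteins in airway epithelium, and to engage the oxidant sensor NRF2 and the aryl hydrocarbon receptor. OVA is an egg protein used as a model allergen, and exhaust particles are known as an adjuvant that strengthens the allergic antibody response to it. An interaction asks whether that second exposure alters the response to the first, gene by gene.

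Signals are given as log2 of the Affymetrix MAS5 value, for the probe set of each gene with the highest mean signal unless another is named. The lung identity of the RNA was borne out by its markers: Sftpc and Sftpb of alveolar type 2 cells averaged 14.82 and 13.58 on the log2 scale over all arrays, Ager of type 1 cells 13.51, Scgb1a1 of club cells 14.57 and Pecam1 of endothelium 11.30. The cytokines Il4, Il5 and Il13, the eosinophil granule genes Prg2 and Epx, the mucin Muc5ac and the NRF2 target Nqo1 lay below the limit on mean signal and were not tested. Because whole lung was measured, fewer cells of a type and less RNA per cell cannot be told apart.

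The arms had different means in the array's own measures of RNA integrity and of repeat-containing RNA, with exhaust as with air. The log2 ratio of 3' to 5' Gapdh signal, which is higher in degraded RNA, averaged 0.28 ± 1.21 with exhaust and -0.17 ± 0.27 with air in the OVA arm, against 1.98 ± 0.34 with exhaust and 1.74 ± 0.95 with air in the saline arm (SD, n = 4 each). The control probe set for B1, a short interspersed repeat found in introns and untranslated regions, averaged 11.33 ± 0.74 with exhaust and 11.68 ± 0.27 with air in the OVA arm. In the saline arm it averaged 13.10 ± 0.17 with exhaust and 12.88 ± 0.36 with air. Exhaust and air overlapped within each arm for both Gapdh and actin ratios and for B1, and the 6 comparisons gave two-sided exact permutation p-values of 0.314 to 0.8 (0.729 to 0.8 after Benjamini-Hochberg adjustment), where 4 against 4 cannot go below 0.0286. One array stood apart: replicate 4 of exhaust with OVA had a Gapdh ratio of 2.09, an actin ratio of 1.95 and a B1 signal of 12.43, while the other 3 arrays of that group had B1 signals of 10.85 to 11.06. The part of these measures in the results below was not tested beyond the values given with each result.

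**Figure D1:**
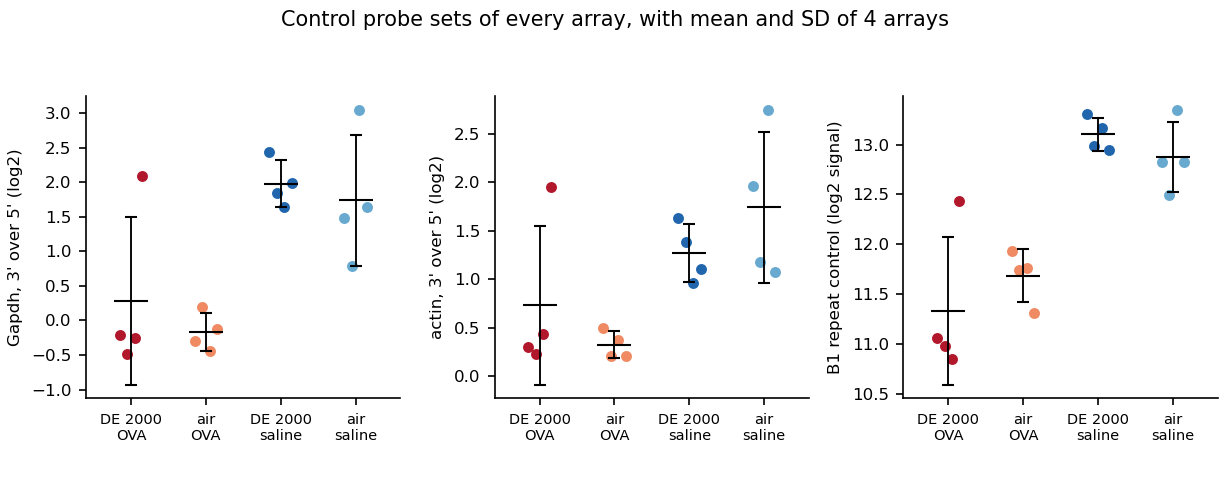
Log2 ratio of 3' to 5' signal for Gapdh and for actin, and log2 signal of the B1 repeat probe set, for each of the 16 arrays by group. Each point is 1 array. Exhaust and air overlap within each arm, the saline arm lies above the OVA arm on average, and replicate 4 of exhaust with OVA lies above the other 3 arrays of its group.

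No gene had an interaction that passed the adjusted test. A small set of genes was called higher with exhaust in each arm, and 2 genes, Cd177 and Pigr, were called in both, though the OVA call of Cd177 was lost in 5 alternatives. In the interaction, 0 of 13575 tested probe sets (0.0%) had a Benjamini-Hochberg adjusted p below 0.05 in limma, and 829 (6.11%) had an unadjusted p below 0.05, where 5% of the tested probe sets is 679. In the OVA arm 3 probe sets (0.0221%) were called and in the saline arm 20 (0.147%), and every one was higher with exhaust. Of the 20 saline calls, 2 were also called in the OVA arm, 7 had an unadjusted p below 0.05 there, and 10 had the same sign there. The difference between the arms was itself not called for any of them: their interactions had adjusted p-values of 0.0852 to 0.989 in limma, and 15 of the 20 had an unadjusted p below 0.05. The median standard error of an interaction was 0.279 on the log2 scale, against 0.197 for the exhaust response in the saline arm alone.

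Single arrays moved these counts. Without replicate 4 of air with saline, 64 probe sets had a called interaction, 1 above and 63 below 0, and without replicate 2 of exhaust with OVA 2 did. The saline count was 106 without replicate 4 of air with saline, 30 without replicate 4 of exhaust with OVA, and 4 to 8 without any one of the other 7 arrays of the saline arm. The OVA count was 7 without replicate 1 of exhaust with OVA, and 1 without replicate 3 of either exhaust or air with OVA. It was 2 without replicate 4 of exhaust with OVA. Of the 20 saline calls, 4 were kept whichever of the 16 arrays was left out (both probe sets of Pigr, Cd177 and 1 probe set of Cp), and of the 3 OVA calls 1 was, that of Pigr.

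Below the adjusted threshold, the interactions leaned to negative values. Of the 829 probe sets with an unadjusted p below 0.05, 235 lay above and 594 below 0. Scaling each array to its median gave 450 above and 356 below 0, and quantile normalization gave 292 above and 450 below, so the lean did not hold under every scaling. Taking each gene by its brightest probe set, 163 of 8315 genes (1.96%) lay above and 283 (3.4%) below 0 at that p. The further 4173 probe sets of the same genes gave 61 above (1.46%) and 266 below (6.37%), and their median interaction was -0.094, against 0.002 for the brightest probe sets. The lean was thus larger among the dimmer probe sets of genes that have several.

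**Figure D2:**
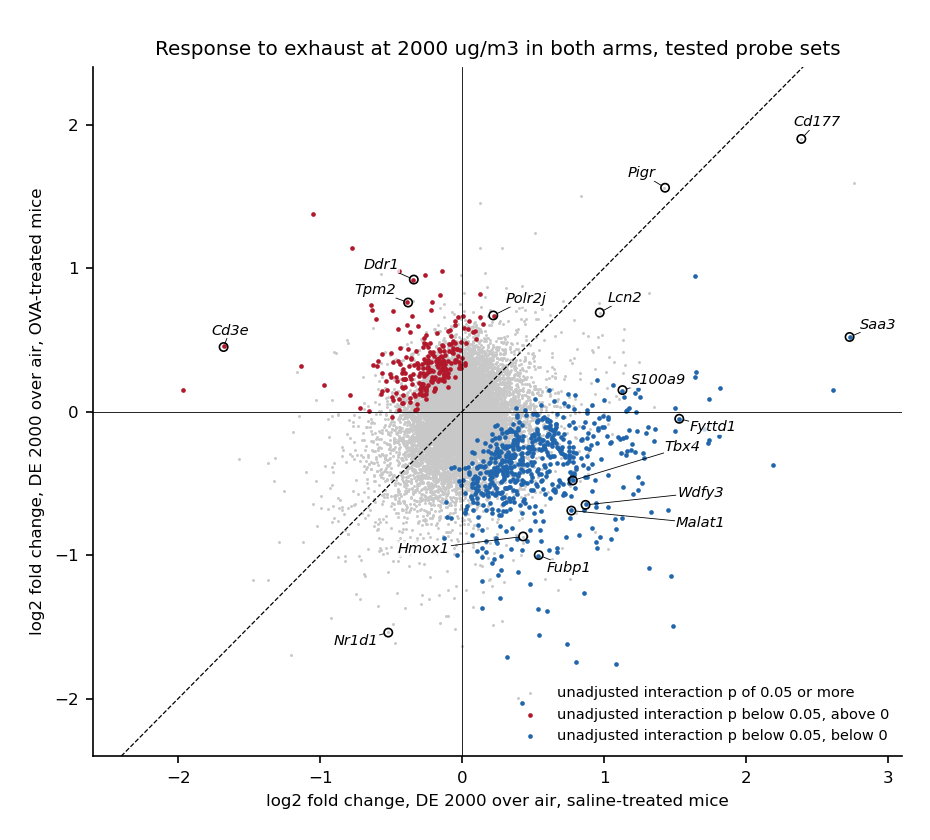
Log2 difference between exhaust at 2000 ug/m3 and air in the OVA arm (vertical axis) against the same difference in the saline arm (horizontal axis), 1 point per tested probe set. The dashed line marks equal responses, and the 235 red probe sets lie above it and the 594 blue ones below it at an unadjusted p below 0.05. Cd177 and Pigr lie far from 0 in both arms, and Saa3 in the saline arm.

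The genes called in an arm included Pigr, Cd177, Saa3, Lcn2 and Cp, and of these Pigr and Cd177 were called in both arms. Pigr, which moves polymeric IgA through airway epithelium into secretions, was raised in both arms. In the OVA arm its log2 signal was 10.47, 10.41, 10.64 and 11.40 with exhaust, against 9.08, 9.07, 8.97 and 9.57 with air, and in the saline arm 11.51, 11.74, 11.53 and 11.28 with exhaust, against 10.19, 10.01, 10.24 and 9.91 with air. All 4 exhaust arrays lay above all 4 air arrays in each arm. Of all genes taken by their brightest probe set, 2.43% had such a separation with OVA and 2.25% with saline. In 2.06% with OVA and 1.68% with saline, exhaust lay below air without overlap. These shares are the background for each separation of groups named below. The rise was 2.95-fold with OVA (log2 1.56 ± 0.22 SE, adjusted p = 0.00385 in limma) and 2.69-fold with saline (1.43 ± 0.22, adjusted p = 0.00394). The interaction was 0.13 (95% interval -0.50 to 0.77, adjusted p = 0.989). The second probe set of Pigr gave -0.70 (adjusted p = 0.81), with 0.94 in the OVA arm (adjusted p = 0.422) and 1.64 in the saline arm (adjusted p = 0.00205).

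Cd177, a neutrophil surface glycoprotein, was also raised in both arms. With OVA it read 8.86, 7.76, 8.61 and 9.48 with exhaust, against 7.19, 6.47, 6.48 and 6.99 with air. With saline it read 9.07, 9.25, 9.62 and 10.04 with exhaust, against 7.28, 7.05, 7.51 and 6.59 with air. Exhaust and air did not overlap in either arm. The rise was 3.73-fold with OVA (log2 1.90 ± 0.30, adjusted p = 0.0134) and 5.24-fold with saline (2.39 ± 0.30, adjusted p = 0.000683). The OVA call was lost without replicate 2 or 3 of air with OVA, without replicate 3 or 4 of exhaust with OVA, and in a fit of the 16 arrays alone (adjusted p = 0.0559 to 0.111), with a difference of 1.63 to 1.92 in these fits. The interaction of -0.49 had a 95% interval of -1.37 to 0.39 (adjusted p = 0.939).

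Saa3, an acute phase protein that lung cells make themselves, had the lowest interaction among the 12 tested acute phase genes. In the OVA arm its signal was 7.69, 6.73, 8.24 and 10.35 with exhaust, against 7.88, 7.40, 7.84 and 7.81 with air. With saline it was 10.12, 10.54, 9.90 and 10.06 with exhaust, against 7.54, 7.49, 7.86 and 6.79 with air. The saline groups were far apart, while in the OVA arm the exhaust arrays lay below, within and above the range of air, and replicate 4 alone was as high as the saline arrays with exhaust. The rise was 6.65-fold with saline (2.73 ± 0.48, adjusted p = 0.018), and the difference with OVA was 0.52 ± 0.48 (adjusted p = 0.776). The interaction was -2.21 ± 0.68 (95% interval -3.63 to -0.80, adjusted p = 0.483 in limma). Without replicate 4 of exhaust with OVA it was -2.91 (adjusted p = 0.0553). The saline call was lost without replicate 1 or 2 of air with saline and without any 1 of the 4 arrays of exhaust with saline (adjusted p = 0.0555 to 0.0925), with a difference of 2.61 to 2.82.

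Lcn2, which binds bacterial siderophores, read 10.85, 10.43, 11.30 and 11.03 with exhaust, against 10.10, 10.25, 10.06 and 10.45 with air in the OVA arm. Its signal with saline was 10.96, 10.82, 10.90 and 10.94 with exhaust, against 9.90, 10.06, 10.27 and 9.49 with air. The saline groups did not overlap and the OVA groups overlapped by 1 array on each side. It rose with saline (0.97 ± 0.18, adjusted p = 0.018), a call lost without the same 6 arrays as that of Saa3 (adjusted p = 0.0587 to 0.112) and after median scaling (0.0593), and the OVA difference of 0.69 (adjusted p = 0.492) and the interaction of -0.29 (adjusted p = 0.942) were not called. Cp encodes ceruloplasmin, a copper-carrying ferroxidase of plasma, and 2 of its 7 tested probe sets rose with saline, by 1.82 (adjusted p = 0.00205) and 0.96 (adjusted p = 0.0328, lost in 6 of the 16 fits that leave out 1 array). Their interactions were -1.66 (adjusted p = 0.297) and -0.44, and that of the brightest probe set was -0.56 (adjusted p = 0.917). Without replicate 4 of air with saline, the interaction of the first was -2.0 and was called (adjusted p = 0.00454 in limma). Reg3g, an antimicrobial lectin named here after its values were seen, differed by 1.59 ± 0.75 with OVA and by 2.76 ± 0.75 with saline, and neither was called (adjusted p = 0.612 and 0.188).

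The windows of 250 bases before the start of 4 genes are printed. Saa3, Cd177 and Pigr were called in an arm. S100a9, a neutrophil marker described below, was called in neither. The windows are from RefSeq on GRCm38.p6, in the direction of transcription, with motif matches in capitals.
Saa3, chr7:46715677-46715926, minus strand: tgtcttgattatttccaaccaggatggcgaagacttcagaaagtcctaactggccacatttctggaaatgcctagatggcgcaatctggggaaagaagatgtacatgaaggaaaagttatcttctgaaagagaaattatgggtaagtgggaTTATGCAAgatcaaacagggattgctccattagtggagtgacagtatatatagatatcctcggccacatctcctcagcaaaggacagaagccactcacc
S100a9, chr3:90695722-90695971, minus strand: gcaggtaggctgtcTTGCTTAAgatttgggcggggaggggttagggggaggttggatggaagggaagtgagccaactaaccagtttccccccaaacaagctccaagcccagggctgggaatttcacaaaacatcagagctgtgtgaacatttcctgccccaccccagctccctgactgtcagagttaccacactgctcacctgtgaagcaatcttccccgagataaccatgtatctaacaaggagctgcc
Cd177, chr7:24760312-24760561, minus strand: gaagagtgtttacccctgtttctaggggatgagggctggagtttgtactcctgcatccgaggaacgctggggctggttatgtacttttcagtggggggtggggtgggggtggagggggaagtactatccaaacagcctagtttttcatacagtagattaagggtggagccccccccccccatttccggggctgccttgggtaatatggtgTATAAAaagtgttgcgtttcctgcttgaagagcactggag
Pigr, chr1:130826434-130826683, plus strand: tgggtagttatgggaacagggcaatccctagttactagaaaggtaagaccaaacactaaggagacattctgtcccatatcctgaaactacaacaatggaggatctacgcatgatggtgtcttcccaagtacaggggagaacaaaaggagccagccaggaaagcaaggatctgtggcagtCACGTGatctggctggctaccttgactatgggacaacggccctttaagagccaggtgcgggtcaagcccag
The motifs were searched on both strands. The windows of S100a8 and Lcn2 were searched with these 4. TTGCNNAA, a core of sites for the C/EBP factors, was found in the windows of Saa3, S100a9 and Lcn2 and not in those of S100a8, Cd177 and Pigr, and it was found in 9.56% of all 32851 such windows. TATAAA was found in the window of Cd177 from 40 to 35 bases before the start, in that of S100a8 from 30 to 25 bases before it, and in 12.4% of all windows. CACGTG, an E-box, was found in that of Pigr, and in 6.02% of all windows. A core of NF-kB sites was in none of these 6 windows and in 3.86% of all. These are matches of letters and no measure of binding, and no match overlapped another.

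Among neutrophil markers, the mean was higher with exhaust than with air for every tested member in the saline arm, and the median difference was smaller in the OVA arm. Of 21 listed markers 12 were tested. In the saline arm all 12 differences were above 0, their median was 0.71, and 7 had an unadjusted p below 0.05; the background in that direction was 3.26% of genes. With OVA 8 of 12 were above 0, their median was 0.17, and 2 had such a p, with a background of 3.98%. The median over all tested genes was -0.009 in the saline arm and -0.017 in the OVA arm. The median interaction of the 12 was -0.39, against 0.002 for all genes, and 11 of 12 lay below 0; the lowest adjusted p among them was 0.734. The median was -0.27 after median scaling, which moved that of all genes to 0.13. Summed signals of the 12 ran from 7741 to 10093 with exhaust and from 6878 to 9023 with air in the OVA arm, against 11044 to 16436 with exhaust and 6183 to 9330 with air in the saline arm. The granule genes Elane, Mpo and Camp, made in immature neutrophils, and the receptor Cxcr2 lay below the test limit.

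S100a9, which pairs with S100a8 to form calprotectin in mature neutrophils, was among the 3 markers with an unadjusted interaction p below 0.05 and a negative interaction, against 3.4% of all genes. Its signals were 10.71, 10.58, 10.76 and 10.27 with exhaust, against 10.91, 10.66, 10.31 and 9.87 with air in the OVA arm. Those of the saline arm were 11.75, 12.50, 11.28 and 11.40 with exhaust, against 10.40, 10.85, 11.02 and 10.14 with air. Only the saline groups were separate. The interaction was -0.98 ± 0.46 (adjusted p = 0.81), with 0.15 in the OVA arm and 1.13 in the saline arm (adjusted p = 0.232). S100a8 gave an interaction of -1.11 ± 0.44 (adjusted p = 0.734), with -0.11 in the OVA arm and 1.0 in the saline arm. The third was Csf3r, the receptor for granulocyte colony-stimulating factor, at -1.15 ± 0.49 (adjusted p = 0.779). Its value rested partly on replicate 1 of air with saline, which read 6.05 while the other 3 arrays of that group read 8.04 to 8.51, and the interaction was -0.60 without it.

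The acute phase list as a whole had like medians in the arms. Of its 12 tested genes 11 were above 0 in each arm, with medians of 0.33 with OVA and 0.37 with saline. The median interaction was -0.08, and median scaling turned it to 0.05 and that of all genes to 0.13. With OVA 4 members had an unadjusted p below 0.05, against a background of 3.98% of genes above 0, and 1 was called, against 0.0361%. In the saline arm 6 had such a p, against 3.26%, and 3 were called, against 0.108%. Lcn2 and Ltf are members of both lists. The summed signal of the 12 ran from 21759 to 29214 with exhaust and from 16554 to 20374 with air in the OVA arm. With saline it ran from 29464 to 32572 with exhaust and from 18141 to 22016 with air, so the sums did not overlap in either arm. Such separation was not particular to this list. In the OVA arm, sums of NRF2, glutathione, type 2 and alveolar macrophage genes also lay above air without overlap, and those of clock genes below. In the saline arm, sums of neutrophil markers lay above air without overlap, and those of alveolar type 1 genes below.

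**Figure D3:**
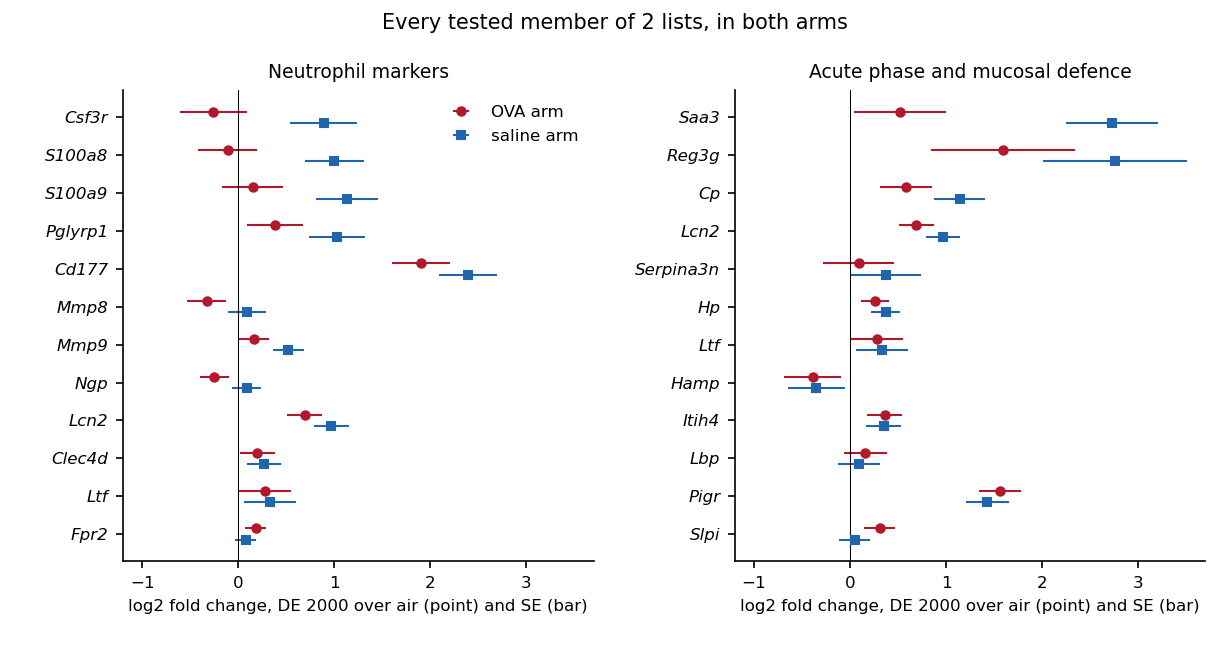
Log2 difference between exhaust at 2000 ug/m3 and air for each of the 12 tested neutrophil markers and the 12 tested acute phase genes, in the OVA arm and in the saline arm. Points are estimates and bars are standard errors. Saa3, S100a8, S100a9 and Csf3r lie farther to the right with saline than with OVA, while Cd177 and Pigr lie to the right in both arms.

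The smallest interaction p belonged to Tbx4, a T-box transcription factor of lung mesenchyme. Its log2 signals were 9.31, 9.42, 8.98 and 8.58 with exhaust, against 9.58, 9.35, 9.69 and 9.57 with air in the OVA arm. Saline signals were 10.08, 9.86, 9.88 and 9.68 with exhaust, against 9.01, 9.13, 8.89 and 9.34 with air. The saline groups were separate, with exhaust above air, and in the OVA arm the lower values were those with exhaust, with an overlap at 9.42 and 9.35. Tbx4 rose 1.72-fold with saline (0.78 ± 0.15, adjusted p = 0.032), and the OVA difference was -0.48 (adjusted p = 0.517). The interaction was -1.26 ± 0.22 (95% interval -1.70 to -0.81), with an unadjusted p of 6.28e-06 and an adjusted p of 0.0852. Over 28 alternatives its adjusted p ran from 0.00708 without replicate 4 of air with saline to 0.353 without replicate 1 of exhaust with saline. It was called in 6 of them: without replicate 4 of air with saline, without replicate 2 of exhaust with OVA (0.0206), with array weights (0.0349), with 1 probe set per gene (0.0367), and with the B1 signal (0.0122) or the 3'/5' ratio (0.0476) as a covariate. The saline call was lost without any 1 of the other 7 saline arrays and in a fit of the 16 arrays alone (adjusted p = 0.0555 to 0.168).

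Other genes called in the saline arm were Fyttd1, an mRNA export adaptor, Tmod3, which caps actin filaments, and Pgap2, an enzyme of GPI anchor maturation. Fyttd1 read 9.14, 9.56, 8.96 and 8.36 with exhaust, against 9.29, 9.36, 9.01 and 8.58 with air in the OVA arm. Its saline signals were 10.05, 10.26, 10.12 and 9.69 with exhaust, against 7.83, 8.64, 7.75 and 9.79 with air. Replicate 4 of air with saline was as high as the exhaust arrays, and the other 3 lay below all of them. The saline rise was 1.53 ± 0.31 (adjusted p = 0.0455) and the interaction -1.58 ± 0.44 (adjusted p = 0.409), and without that array the interaction was called (adjusted p = 0.00708). The saline call was lost in 12 of the 16 fits that leave out 1 array. A second probe set of Fyttd1 had an interaction of 0.08.

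The same array stood high in its group for Tmod3 and Pgap2. Tmod3 averaged 9.36 ± 0.18 with exhaust and 9.39 ± 0.10 with air in the OVA arm, and 10.09 ± 0.14 with exhaust and 9.09 ± 0.53 with air in the saline arm (SD, n = 4 each). Its saline rise was 1.0 ± 0.20 (SE, adjusted p = 0.0337) and its interaction -1.03 ± 0.28 (adjusted p = 0.397). Pgap2 averaged 8.66 ± 0.19 with exhaust and 8.84 ± 0.14 with air in the OVA arm, and 9.67 ± 0.19 with exhaust and 8.52 ± 0.58 with air in the saline arm. It rose by 1.15 ± 0.22 with saline (SE, adjusted p = 0.0228), with an interaction of -1.33 ± 0.31 (adjusted p = 0.297). Its other 2 tested probe sets gave interactions of -0.28 and 1.03, and those of Tmod3 gave -0.01 and -0.61. The saline calls of Tmod3 and Pgap2 were lost in 8 and 7 of the 16 fits that leave out 1 array. Without replicate 4 of air with saline, the interactions of Tmod3 (adjusted p = 0.0118 in limma) and Pgap2 (0.00467) were called. D17H6S56E-5, the last of the 9 genes called with saline by their brightest probe set, rose by 0.76 ± 0.14 (adjusted p = 0.0203), with 0.36 in the OVA arm and an interaction of -0.40 (adjusted p = 0.833). Its saline call was lost in 6 of the 16 fits that leave out 1 array (adjusted p up to 0.115 in limma) and in 2 of 12 other alternatives.

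Of the 20 probe sets called with saline, 11 were dimmer probe sets of genes with several, and the 6 genes below had smaller or negative saline differences in their brightest probe set. Rab22a, a GTPase of early endosomes, rose by 1.81 with saline in one probe set (adjusted p = 0.0172, interaction -1.98), while its brightest gave -0.08. Hdlbp, the RNA-binding protein vigilin, gave 2.19 (adjusted p = 0.0446, interaction -2.56) in one and -0.10 in its brightest. Myo10, an unconventional myosin of filopodia, gave 1.74 (adjusted p = 0.018, interaction -1.65) and 0.57, and Zfp36l1, which promotes mRNA decay, gave 1.19 (adjusted p = 0.018, interaction -1.46) and 0.38. Spred1, an inhibitor of Ras signalling, gave 1.05 (adjusted p = 0.018, interaction -1.26), against -0.07, and the transcription factor Nfic gave 1.03 (adjusted p = 0.0354, interaction -1.08), against -0.08. None of these 6 interactions passed the adjusted test in the fit of all arrays. Each of the 6 saline calls was lost in 6 to 13 of the 16 fits that leave out 1 array. Without replicate 4 of air with saline, all 6 interactions were called (adjusted p = 0.0017 to 0.0441 in limma). With the B1 signal as a covariate, those of Rab22a, Hdlbp, Zfp36l1, Spred1 and Nfic were called (adjusted p = 0.034 to 0.039). In the called probe set of Rab22a, signals were 7.01, 7.72, 7.56 and 6.90 with exhaust, against 7.28, 7.52, 7.81 and 7.26 with air in the OVA arm. With saline they were 9.80, 9.81, 9.92 and 9.74 with exhaust, against 7.51, 7.26, 7.90 and 9.35 with air. Here too replicate 4 of air with saline lay near the exhaust arrays.

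The 10 genes with the smallest p among negative interactions, Tbx4 and Pgap2 included, all had a negative difference with OVA and a positive one with saline. They were picked by their interaction, a choice that favours opposite signs in the arms. Malat1, a long noncoding RNA of nuclear speckles, read 10.91, 12.22, 11.38 and 11.63 with exhaust, against 11.94, 12.15, 13.15 and 11.67 with air in the OVA arm. The saline signals were 13.47, 13.89, 13.65 and 13.77 with exhaust, against 12.86, 13.09, 12.48 and 13.28 with air. The saline groups were separate and the OVA groups overlapped. Its interaction was -1.46 ± 0.37 (adjusted p = 0.363), with -0.69 in the OVA arm and 0.77 in the saline arm, and its 5 probe sets gave -1.46 to -1.63. Over these groups the B1 repeat signal moved the same way, with an interaction of -0.58; its part in the Malat1 value was not tested.

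Wdfy3, a large adaptor of selective autophagy, read 8.29, 8.62, 8.73 and 7.96 with exhaust, against 8.79, 8.84, 9.64 and 8.92 with air in the OVA arm. Signals with saline were 9.92, 9.93, 10.21 and 10.16 with exhaust, against 8.70, 8.79, 9.37 and 9.90 with air. Exhaust lay below air with OVA and above air with saline, without overlap in either arm, though the saline gap was only 9.92 against 9.90. Of all genes, 2.06% lay below without overlap with OVA and 2.25% above with saline. The interaction was -1.52 ± 0.34 (adjusted p = 0.297), with -0.65 in the OVA arm and 0.87 in the saline arm (adjusted p = 0.212). Fubp1, a single-stranded DNA-binding regulator of transcription, averaged 6.83 ± 0.49 with exhaust and 7.83 ± 0.64 with air in the OVA arm. With saline it averaged 9.30 ± 0.19 with exhaust and 8.76 ± 0.31 with air (SD, n = 4 each). Its interaction was -1.54 ± 0.40 (SE, adjusted p = 0.372), and its other probe set gave 0.27.

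The rest of these 10 were Ddx10, an RNA helicase, at -0.98 (adjusted p = 0.33) and 0.09 in its other probe set, the zinc finger gene Zfp109 at -0.99 (adjusted p = 0.363), and Eif2ak2, the kinase PKR that senses double-stranded RNA, at -1.28 (adjusted p = 0.363). Magt1, a subunit of the oligosaccharyltransferase, had -0.94, and Myrf, a membrane-bound transcription factor, -1.62 ± 0.44 (adjusted p = 0.397 for each). With OVA these 5 differed by -0.95 for Myrf to -0.31 for Magt1, and with saline by 0.56 for Zfp109 to 0.92 for Eif2ak2. With the B1 signal as a covariate, the interactions of Wdfy3 (adjusted p = 0.039), Pgap2 (0.0411) and Magt1 (0.0349) were called along with that of Tbx4. Without replicate 4 of air with saline, those of Wdfy3 (adjusted p = 0.0118), Pgap2 (0.00467), Magt1 (0.0294) and Eif2ak2 (0.0382) were called along with that of Tbx4.

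A list of 44 tested splicing factors and nuclear RNAs, which regulate or accompany pre-mRNA processing, had a median nearer 0 than these single genes. Its median interaction was -0.15, with 14 of 44 above 0, and -0.02 after median scaling, which moved that of all genes to 0.13. Its median was -0.14 in the OVA arm and -0.04 in the saline arm. In the OVA arm 9 members had an unadjusted p below 0.05 below 0 and 1 above 0, against a background of 4.11% of genes below 0. Rbm25, a splicing factor, had an interaction of -0.54 (adjusted p = 0.798) and 0.33 in its other probe set, and Hnrnpc gave 0.37. Summed signals ran from 68717 to 75802 with exhaust and from 73293 to 94224 with air in the OVA arm, and from 99380 to 104423 with exhaust and from 91260 to 102198 with air in the saline arm. The sums overlapped within each arm and lay higher in the saline arm with exhaust than in any OVA array.

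**Figure D4:**
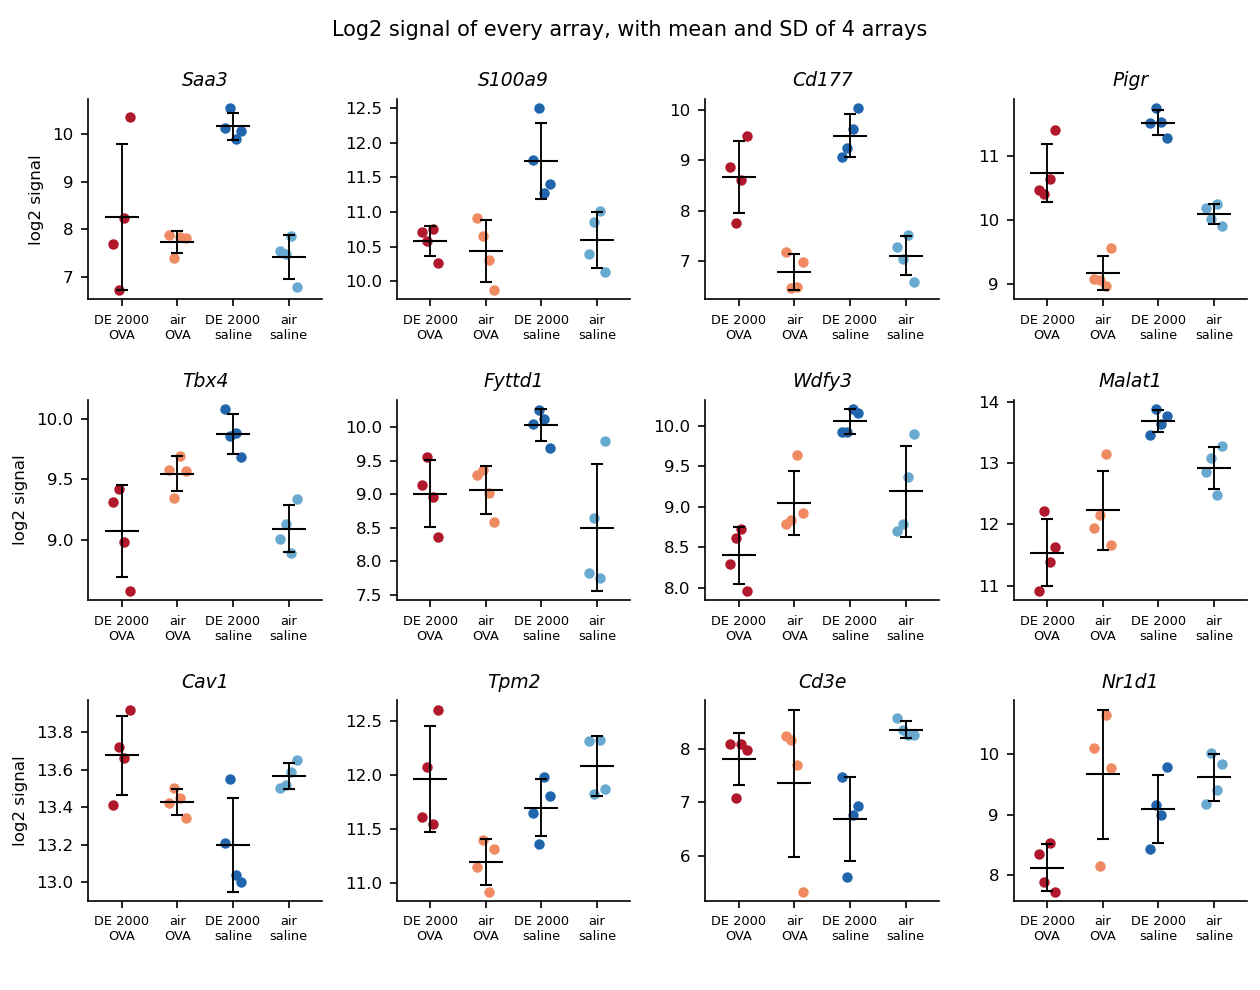
Log2 signal of 12 genes in the 4 groups, with exhaust left of air in each arm. Points are arrays and bars are the mean and SD of 4 arrays. Cd177 and Pigr separate in both arms, Saa3, S100a9, Tbx4 and Malat1 separate in the saline arm only, and Fyttd1 shows the single high array of air with saline.

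The 10 genes with the smallest p among positive interactions included Cav1, Tpm2 and Cd3e. Cav1, the main coat protein of caveolae and abundant in type 1 cells and endothelium, averaged 13.68 ± 0.21 with exhaust and 13.43 ± 0.07 with air in the OVA arm, and 13.20 ± 0.25 with exhaust and 13.57 ± 0.07 with air in the saline arm (SD, n = 4 each). Each pair of groups overlapped by a single exhaust array. The interaction was 0.62 ± 0.17 (adjusted p = 0.397), with 0.25 in the OVA arm and -0.37 in the saline arm.

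Tpm2, the beta-tropomyosin of contractile cells, read 11.61, 12.08, 11.55 and 12.61 with exhaust, against 11.15, 11.40, 10.92 and 11.32 with air in the OVA arm, with no overlap. In the saline arm it read 11.65, 11.36, 11.98 and 11.81 with exhaust, against 12.32, 11.83, 12.33 and 11.87 with air, where the groups overlapped. Its interaction was 1.15 ± 0.33 (adjusted p = 0.411), and its other 2 probe sets gave 0.64 and -0.45. Cd3e, a subunit of the T cell receptor complex, had the highest estimate of these, 2.14 ± 0.67 (95% interval 0.76 to 3.52, adjusted p = 0.491). Its signals were 8.09, 7.09, 8.10 and 7.98 with exhaust, against 8.25, 8.18, 7.70 and 5.32 with air in the OVA arm. With saline they were 7.48, 5.59, 6.76 and 6.93 with exhaust, against 8.59, 8.36, 8.27 and 8.26 with air. The saline groups were separate, with exhaust lower by 1.68 (adjusted p = 0.218), and single arrays at 5.32 and 5.59 lay far below the rest. The 18 tested T and NK cell genes as a list did not lean that way, with a median interaction of -0.15 and 6 of 18 above 0. Their median was 0.00 in the OVA arm and 0.02 in the saline arm. Their interaction median was -0.03 after median scaling, which moved that of all genes to 0.13.

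The remaining genes among the 10 with the smallest p on the positive side were Ece2, an endothelin-converting enzyme (0.91), the carboxypeptidase inhibitor Lxn (0.91), Nr2c2ap (0.73), the collagen receptor kinase Ddr1 (1.26), the glutathione transferase Gstt1 (0.70), the dioxygenase Jmjd6 (0.61) and Serpinf1, which encodes the anti-angiogenic factor PEDF (0.57). The other 4 probe sets of Ddr1 gave -0.33 to 0.49, and the second probe sets of Jmjd6 and Serpinf1 gave 0.09 and 0.41. The adjusted p-values of the 7 ran from 0.397 for Ece2 to 0.518 for Serpinf1. All 7 had a positive difference with OVA, from 0.32 for Ece2 to 0.92 for Ddr1, and a negative one with saline, from -0.60 for Ece2 to -0.14 for Jmjd6. These too were picked by their interaction, which favours such opposite signs. With the B1 signal as a covariate, Lxn (1.10, adjusted p = 0.0287), Tpm2 (1.43, adjusted p = 0.0209) and Ddr1 (1.44, adjusted p = 0.0465) were called. Polr2j, a subunit of RNA polymerase II, was the third gene called in the OVA arm. It read 9.93, 10.03, 9.95 and 10.11 with exhaust, against 9.25, 9.34, 9.20 and 9.55 with air, a rise of 0.67 ± 0.12 (adjusted p = 0.0467). This call was lost in 12 of the 16 fits that leave out 1 array (adjusted p up to 0.356), after median scaling, with no filter, with no variance trend, with array weights and in a fit of the 16 arrays alone (0.0569 to 0.165). With saline it read 9.73, 9.78, 9.79 and 9.68 with exhaust, against 9.66, 9.48, 9.24 and 9.71 with air, a difference of 0.22. Its interaction was 0.44 ± 0.17 (adjusted p = 0.669).

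Genes of the mitochondrial respiratory chain and of the ribosome had positive median interactions, and no member was called in either arm in the fit without covariates. Of 65 tested genes of oxidative phosphorylation, 58 had an interaction above 0, with a median of 0.18 and a range of -0.21 to 0.73, against 50.2% of all genes above 0. The median was 0.18 in the OVA arm, with 57 of 65 above 0, and -0.02 in the saline arm, with 28 above 0. The median interaction was 0.31 after median scaling, against 0.13 for all genes, and 0.13 after quantile normalization, against 0.04 for all genes. The lowest adjusted p of a member was 0.665. Uqcrb, a subunit of complex III, averaged 14.04 ± 0.21 with exhaust and 13.60 ± 0.09 with air in the OVA arm, and 13.69 ± 0.11 with exhaust and 13.73 ± 0.17 with air in the saline arm (SD, n = 4 each). Its interaction was 0.47 (adjusted p = 0.665). With the B1 signal as a covariate it was 0.61 (adjusted p = 0.0381 in limma), and Ndufs8 was also called, at 1.01 (adjusted p = 0.0447). In that fit 11 of the 65 genes were called higher in the OVA arm, against 229 of all 8315. Without the covariate, Ndufa3 of complex I gave 0.48, and Sdhb and Sdha of complex II gave 0.42 and 0.34. The difference of Sdha lay in the saline arm (0.01 with OVA, -0.33 with saline) and that of Sdhb in the OVA arm (0.39 with OVA, -0.03 with saline).

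Among 42 tested ribosomal protein genes, 33 had an interaction above 0, with a median of 0.20. This was 0.32 after median scaling, against 0.13 for all genes, and 0.03 after quantile normalization, against 0.04 for all genes. Their median was 0.24 in the OVA arm, with 39 of 42 above 0, and 0.06 with 27 above 0 after quantile normalization. In that arm 11 had an unadjusted p below 0.05 and all 11 lay above 0, against a background of 3.98% of genes. The saline median was 0.07, and 1 had such a p, against 3.26%. Rpl7a gave an interaction of 0.29, while Rpl12 stood at the other end with -0.88 (adjusted p = 0.552). The summed signal of the ribosomal genes ran from 346152 to 431066 with exhaust and from 321386 to 357082 with air in the OVA arm. With saline it ran from 396269 to 433512 with exhaust and from 364812 to 459629 with air. The sums overlapped within each arm. With the B1 signal as a covariate, 12 ribosomal genes were called higher in the OVA arm, against 229 of all 8315 genes.

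**Figure D5:**
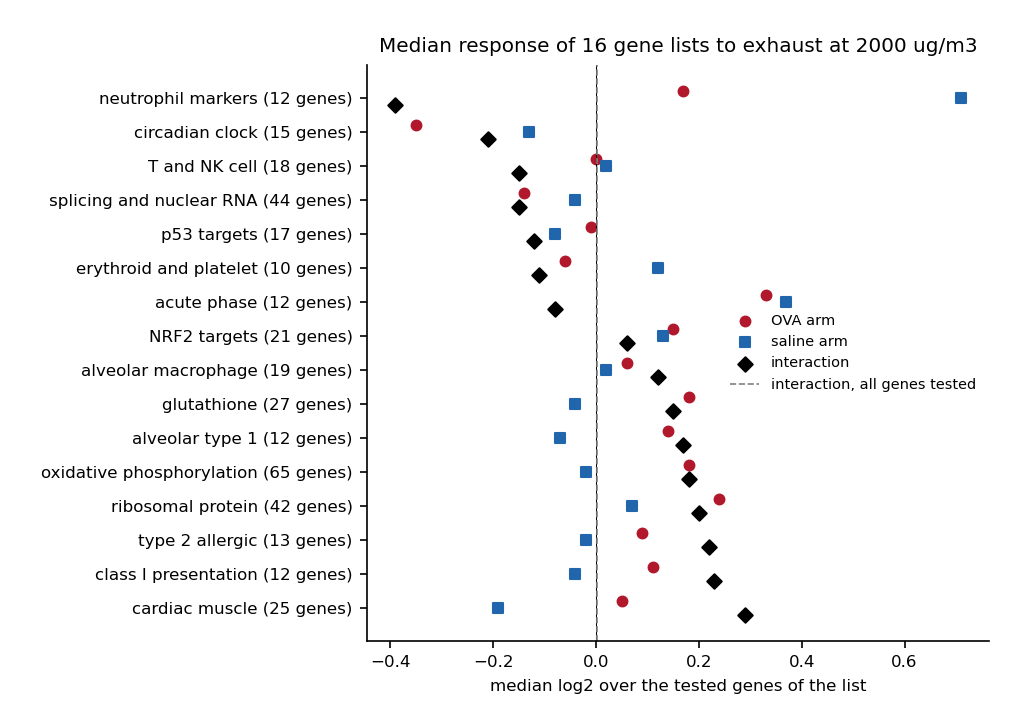
Median log2 value over the tested genes of 16 gene lists: the difference between exhaust and air in the OVA arm (circles), the same in the saline arm (squares), and the interaction (diamonds). Neutrophil markers have the lowest median interaction, -0.39, and cardiac muscle genes the highest, 0.29.

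Cardiac muscle genes, which enter lung samples with the muscle sleeves of pulmonary veins, had the highest median interaction of the 16 lists described, 0.29, with 21 of 25 above 0. Their median was 0.05 in the OVA arm and -0.19 in the saline arm, where 3 of 25 were above 0. The summed signal in the saline arm ran from 15961 to 47871 with exhaust and from 29667 to 39629 with air, a wide spread within a group, and the median interaction was 0.01 without replicate 2 of exhaust with saline. Ttn, the giant spring protein of sarcomeres, lay opposite to the list at -1.16 (adjusted p = 0.734). Class I antigen presentation genes had a median of 0.23 (12 tested, 8 above 0), with H2-K1 at 0.32 (adjusted p = 0.81), with a median of 0.11 in the OVA arm and -0.04 in the saline arm. The interaction median of this list was 0.12 after quantile normalization and 0.14 without replicate 4 of air with saline. Alveolar type 1 genes had 0.17 (12 tested, 9 above 0), with 0.14 in the OVA arm and -0.07 in the saline arm. After quantile normalization the OVA median was -0.05 and the interaction median 0.03, and without replicate 4 of exhaust with OVA the interaction median was 0.08.

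Clock genes had negative median differences in both arms, and none was called in the fit of all arrays without covariates. Of 15 tested, 14 had a difference below 0 with OVA, their median was -0.35, and 6 had an unadjusted p below 0.05 in that direction, against a background of 4.11% of genes. With saline 11 were below 0, the median was -0.13, and none had such a p. The background below 0 was 2.18% of genes in the saline arm. The median interaction was -0.21, with 2 of 15 above 0, and -0.09 after median scaling, which moved that of all genes to 0.13. With the B1 signal as a covariate, 5 clock genes were called lower and 1 higher with OVA, against 170 and 229 of all 8315 genes. Nr1d1, which encodes the nuclear repressor REV-ERB alpha, read 8.35, 7.89, 8.54 and 7.73 with exhaust, against 10.09, 8.16, 10.64 and 9.76 with air in the OVA arm. With saline it read 8.43, 9.16, 8.99 and 9.78 with exhaust, against 9.18, 10.02, 9.41 and 9.84 with air. The groups overlapped in both arms, by the single air array at 8.16 in the OVA arm. Its OVA difference was -1.54 (adjusted p = 0.492) and its interaction -1.01 ± 0.58 (adjusted p = 0.884). Without replicate 2 of air with OVA, the array at 8.16, Nr1d1 was called lower with exhaust in the OVA arm. Its interaction was called in none of the 28 alternatives.

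Per1, a core repressor of the clock, averaged 9.49 ± 0.18 with exhaust and 10.01 ± 0.14 with air in the OVA arm, without overlap, and 10.62 ± 0.36 with exhaust and 10.51 ± 0.25 with air in the saline arm (SD, n = 4 each). Its interaction was -0.63 (adjusted p = 0.602). Hlf, an output factor of the clock, gave -0.85 (adjusted p = 0.576) and -0.07 in its other probe set. Nr1d2, the paralog of Nr1d1, gave -0.46, with -0.68 in the OVA arm and -0.22 in the saline arm. Time of day at tissue collection is not given in the labels used here, and its part was not tested. Summed clock signals ran from 14450 to 15841 with exhaust and from 17264 to 21618 with air in the OVA arm, without overlap. Several other lists also separated in that arm, as given with the acute phase genes. With saline they ran from 18920 to 22748 with exhaust and from 21336 to 22878 with air.

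Oxidant and xenobiotic defence genes had median interactions near that of all genes or slightly above it. The 21 tested NRF2 targets had a median interaction of 0.06, with 13 above 0, and medians of 0.15 in the OVA arm and 0.13 in the saline arm. No member had an unadjusted interaction p below 0.05, and the lowest adjusted p was 0.837. Hmox1, which degrades heme, read 7.77, 7.50, 7.73 and 4.87 with exhaust, against 8.15, 6.94, 7.94 and 8.34 with air in the OVA arm. With saline it read 8.02, 7.41, 7.02 and 8.05 with exhaust, against 6.34, 7.44, 7.66 and 7.35 with air. Replicate 4 of exhaust with OVA was far below all other arrays. The interaction was -1.30 ± 0.66 (adjusted p = 0.837) with that array and -0.60 without it. Gclc, the catalytic subunit that makes the precursor of glutathione, gave -0.50 (adjusted p = 0.873), with 0.12 in the OVA arm and 0.62 in the saline arm.

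The 27 tested glutathione genes had a median interaction of 0.15, with 20 above 0, and medians of 0.18 in the OVA arm and -0.04 in the saline arm. Gstp1, a lung glutathione transferase, gave 0.49. Cyp1a1 and Cyp1b1, oxidases induced through the aryl hydrocarbon receptor, gave interactions of 0.37 ± 0.39 and 0.33. The difference of Cyp1a1 was -0.02 in the OVA arm and -0.39 in the saline arm. The metal-binding metallothioneins Mt1 and Mt2 gave 0.73 ± 0.37 and 0.41, with 0.38 and 0.03 in the OVA arm and -0.35 and -0.38 in the saline arm. None of these was called in either arm.

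Genes of type 2 immunity were measured only in part, since 13 of the 33 on the array passed the limit. The median interaction of those 13 was 0.22, with 8 above 0, and medians of 0.09 in the OVA arm and -0.02 in the saline arm. Retnla, a resistin-like protein of type 2 inflammation made by epithelium and macrophages, read 11.28, 11.39, 11.20 and 11.11 with exhaust, against 10.50, 10.37, 10.53 and 10.55 with air in the OVA arm. With saline it read 11.33, 11.06, 11.93 and 11.61 with exhaust, against 10.25, 10.50, 11.14 and 10.16 with air. The OVA groups were separate and the saline groups overlapped by 1 array on each side. The differences were 0.76 (adjusted p = 0.492) and 0.96 (adjusted p = 0.069), and the interaction -0.21 (adjusted p = 0.973). The chitinase-like gene Chil3 and the acidic chitinase Chia1 gave 0.31 and 0.44. Of the alveolar macrophage genes, 19 were tested, with a median interaction of 0.12 (0.01 after quantile normalization). Ctsk, a collagen-degrading cathepsin, gave 0.77 (adjusted p = 0.54) and the lipid droplet gene Plin2 0.47.

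The smaller lists at the low end lay near the background. The 17 tested p53 targets had a median interaction of -0.12 and the 10 tested erythroid and platelet genes -0.11. Median scaling turned these to 0.01 and 0.02 and moved that of all genes to 0.13. No member of either had an unadjusted interaction p below 0.05.

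Most genes with an unadjusted interaction p below 0.05 had such a p in 1 arm alone. These genes were picked by the difference between the arms, a choice that favours this pattern. Of all 8315 genes, 1.96% had an interaction above 0 at that p and 3.4% had one below 0. Of all genes, 3.26% were higher and 2.18% lower at that p with saline, and 3.98% were higher and 4.11% lower with OVA. Of the 446 genes taken by their brightest probe set, 123 (27.6%) were higher with exhaust with saline and had no such p with OVA, and 38 (8.52%) were lower with saline. In the OVA arm 77 (17.3%) were higher and 89 (20%) lower, with no such p in the saline arm. Opposite responses in the arms were seen in 10 (2.24%) that were lower with OVA and higher with saline, Tbx4 and Wdfy3 among them, and in 2 (0.448%) the other way. A further 107 (24.0%) had no such p in either arm. These patterns were sorted at unadjusted thresholds, and since no interaction passed the adjusted test, they describe the values and name no gene as responding in 1 arm alone.

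Exhaust at 500 ug/m3 gives a second set of arrays for the same genes, set against the same air arrays, so the differences at the 2 doses are not independent. The inflammatory genes had these differences from air at the lower dose: Saa3 gave -0.30 with OVA and 0.09 with saline, Cd177 0.15 and -0.38, Pigr 0.05 and -0.24, Lcn2 -0.06 and -0.12, and S100a9 -0.39 and 0.08, in the same order. The saline-raised genes outside inflammation gave values with saline near those at 2000 ug/m3. These were 0.77 for Tbx4, against 0.78 at the high dose, 1.71 for Fyttd1, against 1.53, 1.22 for Tmod3, against 1.0, and 0.77 for Pgap2, against 1.15. With OVA the same genes gave 0.13, 0.14, 0.02 and -0.03 at 500 ug/m3. For Malat1 the lower dose gave -0.25 with OVA and 0.68 with saline. Of the 4 arrays of exhaust at 500 ug/m3 with saline, 2 had log2 Gapdh 3'/5' ratios of 4.91 and 4.34, above every other array, and their part in these values was not tested.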

How the data were processed

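Lung RNA was extracted from frozen tissue with RNeasy and labelled as biotinylated cRNA from 2 ug of total RNA for Affymetrix arrays, per the labels' protocols. The authors deposited linear intensities for each probe set, made with MAS5 of an unstated version, per the submitters' processing notes. Trimmed of 2% at each end, the mean intensity of every deposited array was between 499.7 and 500.0, and the array medians were between 181.7 and 242.7. The number of arrays, 4 per group, limits the precision.

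Of 22690 probe sets, 64 controls were set aside. By the array's annotation, 20380 of the rest name 1 gene, 691 several and 1555 none. Signals were taken to log2 with no pseudocount, and the 13575 probe sets whose mean log2 signal over all 24 arrays exceeded its 40th percentile, 7.11, were tested. limma 3.58.1 under R 4.3.3 fitted a mean for each group of the series and moderated the variance with a trend (lmFit, contrasts.fit and eBayes), two-sided, with Benjamini-Hochberg adjustment over all tested probe sets and a threshold of 0.05. A gene is given by its tested probe set with the highest mean signal, which represents 8315 genes. The fit was also run on simulated data with independent normal noise, which held no shared effect of an array or of RNA quality. Figures were drawn with matplotlib 3.10.9 in Python 3.11.15.

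The comparison, the gene lists and the rule for named genes were chosen with earlier results of these data known. That rule took the 10 genes with the smallest interaction p on each side of 0, every gene called in an arm, up to 4 members of each list described, and 13 genes whatever their values. The text gives values for a part of them. Of 49 lists, 42 had at least 8 tested genes, and 16 are described: the 6 with the highest and the 6 with the lowest median interaction, and 7 chosen by subject, some of which coincide. Alternatives changed the scaling, the filter, the pseudocount, the arrays in the fit, array weights, the variance trend, the probe sets per gene, a replicate block and the quality covariates, and left out each array in turn.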

Additional observations from a re-analysis of the deposited data

Results flagged for a closer look

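Arrays that stood apart from the other 3 of their group, by Dixon's criterion at its 95% critical value for 4 samples, were found in 28 of 276 groups of 4 values, where chance flags about 1 in 20. Replicate 4 of exhaust with OVA accounted for 6 of them. It was high in the 3'/5' ratios of Gapdh (2.09) and actin (1.95) and in B1 (12.43), high in Mt2 (10.70) and Gstp1 (12.86), and low in Hmox1 (4.87). No explanation was tested.

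The remaining flags, as log2 signals, were these. In exhaust with OVA, Cd3e read 7.09 in replicate 2 and Myo10 10.59 in replicate 3. In air with OVA, Nr2c2ap read 8.24 in replicate 1, Saa3 7.40 and Tmod3 9.24 in replicate 2, Wdfy3 9.64 and Eif2ak2 7.84 in replicate 3, and Gclc 9.77 in replicate 4. In exhaust with saline, Zfp109 read 7.83, Per1 11.16 and Rbm25 10.43 in replicate 1, Ttn 8.47 in replicate 2, Lxn 9.89 in replicate 3, and Myrf 8.71, Csf3r 7.95 and Rpl7a 13.46 in replicate 4. In air with saline, Spred1 read 9.74 in replicate 1, Zfp109 6.59, Lxn 10.86, Nr1d2 10.48 and Rpl12 6.91 in replicate 3, and Hlf 10.35 in replicate 4.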

How the results depend on the processing

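The count of called interactions, 0 as reported, was 1 with array weights, 1 with 1 probe set per gene, 1 after adding the 3'/5' ratio to the fit, and 181 (43 above and 138 below 0) with the B1 signal as a covariate, and it ran from 0 to 64 when 1 array was left out. Of those 181 and the 64 without replicate 4 of air with saline, 31 were shared (17.1% and 48.4%). The OVA count, 3 as reported, was 1 in a fit of the 16 arrays alone and 974 with the B1 covariate, and 1 to 7 with 1 array left out. The saline count, 20 as reported, was 138 with array weights, 9 with 1 probe set per gene, 63 with the 3'/5' covariate and 38 with the B1 covariate, and 4 to 106 with 1 array left out. Unadjusted interactions, 829 as reported, numbered 1371 without the filter, 533 with the filter at the 60th percentile, 467 with 1 probe set per gene and 2441 with the B1 covariate, and 594 to 1028 with 1 array left out. The causes were not tested beyond the smaller or larger number of probe sets that a filter leaves.

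Of 98 named genes, 3 did not keep the sign of their interaction in all of 28 alternatives. Pigr, 0.13 as reported, gave -0.08 with array weights and -0.09 to 0.27 with 1 array left out. Rab22a, -0.05 as reported by its brightest probe set, gave 0.07 with median scaling and 0.04 with both array weights and the 3'/5' covariate, and -0.22 to 0.07 with 1 array left out. Lyz2, 0.27 as reported, gave 0.00 with quantile normalization. Taken by their brightest probe set, 11 of these genes had an interaction that passed the threshold in at least 1 alternative. Dimmer probe sets of other named genes passed too. Among them were those of Cp, Rab22a, Hdlbp, Myo10, Zfp36l1, Spred1 and Nfic given above. With the B1 covariate, the second probe set of Pigr passed as well (-1.02, adjusted p = 0.034 in limma).

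Replicate numbers did not pair the samples: the 24 correlations of same-numbered residuals lay between -0.22 and 0.19. With the replicate block the counts were 0 for the interaction, 3 for OVA and 16 for saline, and 836 unadjusted.

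Low signal kept Nqo1, Il13 and the eosinophil genes out of the tests.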
